A study of Mus musculus with 10 samples.

Results

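Complex I is the largest enzyme of the mitochondrial respiratory chain. The genes described here are its subunits and assembly factors encoded in the nucleus, with a few that share only the family symbol. They were taken by symbol: every gene of the deposited table whose identifier maps to a symbol starting with Ndufa, Ndufb, Ndufc, Ndufs, Ndufv or Ndufaf, without the symbols that end in -ps. This gave 48 of 22891 genes, and 46 of the 48 passed the filter on low values. Ndufa4 and Ndufa4l2, which belong elsewhere, are among the 46 and are included in counts and medians of the 46 members. Ndufb4c and Ndufs6b, which the annotation classes as processed pseudogenes, did not pass, with means of 1.28 and 0.77 log2 units. The values are RNA levels in whole ovaries of 3-week-old mice on a mixed background that the labels write as C57/Bl6/N;129SvEv7, from mice that had received no stimulation. The groups were 5 libraries with the genotype label Control and 5 with the genotype label Uba3 cKO, and the labels used here name no treatment of either. The labels used here name no Cre driver, no deleted exon and no cell type in which Uba3 was removed, and they name no allele that the controls carry. The labels do not say whether the ovaries of a group are from separate animals. The p-values therefore reflect only the spread between these samples, which may be technical.

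Complex I takes electrons from NADH, passes them along a chain of iron-sulfur clusters to ubiquinone, and uses the energy to pump protons across the inner membrane. Its peripheral arm holds an N module, which oxidises NADH, and a Q module, which reduces ubiquinone, while its membrane arm holds the proton pumps. The pumps are encoded in mitochondrial DNA (the mt-Nd genes), and all other subunits come from nuclear genes, so the enzyme draws on both genomes. In the ovary, mitochondria of oocytes and of the granulosa cells around them supply the energy for follicle growth, and oocytes carry a very large stock of mitochondrial DNA. Uba3 is the catalytic subunit of the NEDD8-activating enzyme, which starts the attachment of the ubiquitin-like protein NEDD8 to other proteins. The series title joins neddylation with transcription in mitochondria and oocyte quality, and the comparison asks whether RNA of the nuclear part of complex I differs between Uba3 cKO and control ovaries.

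The values are log2 normalized levels of unknown depth, 1 for each gene and library, and library medians lay between 6.29 and 6.44. Uba3 itself measured 10.12 ± 0.177 (SD, n = 5) in controls and 10.12 ± 0.069 (SD, n = 5) in Uba3 cKO ovaries, a difference of 0.0032 that was -0.056 without Control replicate 3, and with no deleted exon named this does not check the labels. Markers of oocytes, granulosa cells, theca cells and stroma were present in both groups, with list means of 10.32, 13.70, 8.10 and 9.72 in controls and 10.28, 13.78, 8.04 and 9.75 in Uba3 cKO. Markers of adipocytes (5.01 and 5.18) and of ciliated oviduct epithelium (4.38 and 4.50) were lower. The remaining lists were smooth muscle (8.46 and 8.37), erythroid (7.91 and 7.71) and macrophage (5.36 and 5.31). The theca list is uneven, with mean levels from 3.52 for Insl3 to 13.62 for Hsd3b1. The groups overlapped for all 9 marker lists. In bulk tissue, fewer cells of a type and less RNA per cell cannot be told apart. Control replicate 3 stood apart from the other libraries by transcript length: genes with transcripts under 1 kb and a level of at least 8 lay 0.32 log2 units above their 10-library mean there (median of 630 genes), and in the other 9 libraries this median lay between -0.17 and 0.087. Values are therefore given with and without that library where the direction depends on it.

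RNA of the nuclear complex I genes did not pass the test in any member. By limma, 0 of 46 members had an adjusted p under 0.05, against 0% of the 15629 genes tested. At an unadjusted p under 0.05 there were 0 of 46 members, against 1.79% of all genes, and 0 of 46 had groups that did not overlap, against 0.32% of all genes. The smallest unadjusted p among the members was 0.0957, for Ndufc1, and the adjusted p by limma was 0.9999 for all 46. The 95% intervals bound the differences in the deposited values. All 46 members had intervals inside 0.5 log2 units in either direction, which is between 0.707-fold and 1.41-fold on that scale. For 19 of 46 the intervals lay inside 0.25 log2 units. The transform of the values is unnamed and may draw low genes toward their mean, so these need not be bounds on RNA amounts. Of all genes tested, 94.9% had intervals inside 0.5. The lowest bound was -0.48, for Ndufb8, and the highest was 0.36, for Ndufs1.

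The direction of the small differences depended on 1 library. With all libraries the mean was lower in Uba3 cKO for 36 of 46 members and higher for 10, against 49.8% lower and 50.2% higher over all genes, and the median difference was -0.056 log2 units against 0.00034 for all genes. Without Control replicate 3 it was lower for 19 members and higher for 27, against 52.7% lower and 47.3% higher over all genes, and the median was 0.0066 against -0.0052. The median thus changed sign with 1 control left out. The interval plot shows both values for 45 members.

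**Figure D1:**
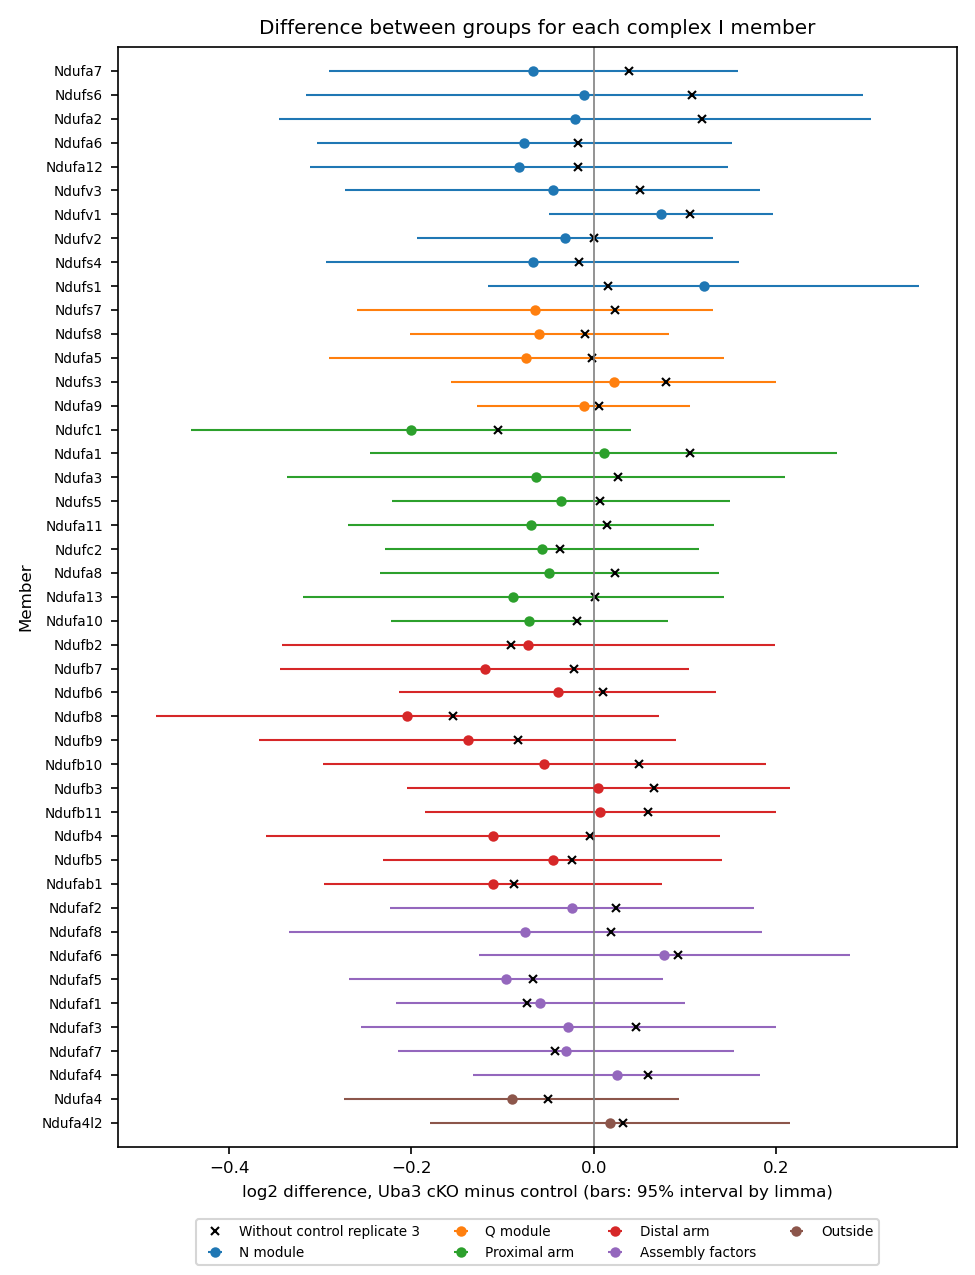
Difference in log2 level (horizontal axis, Uba3 cKO minus control) for 45 of the 46 members tested (vertical axis), coloured by role; points are limma estimates from 5 against 5 libraries, bars their 95% intervals, and crosses the estimates without Control replicate 3. Every interval crosses 0, and many of the crosses lie to the right of their points.

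Structural subunits had higher levels than assembly factors in the median, with overlapping ranges. After division by transcript length, the 36 structural subunits had a median level of 10.32 log2 units per kb, from 7.75 for Ndufb8 to 11.61 for Ndufa7, and the 8 genes named Ndufaf had a median of 7.78, from 7.06 for Ndufaf4 to 9.12 for Ndufaf2. Medians of the structural groups lay close together on this scale, at 10.30 for the N module, 10.74 for the Q module, 10.43 for the proximal part of the membrane arm and 9.82 for the distal part. Ndufb8 and Ndufb2 were the lowest structural subunits, at 7.75 and 8.10, below Ndufv3 at 8.76. Other genes on the same strand overlap 4.26% of the annotated exon bases of Ndufb8 and 2.58% of those of Ndufb2. Whether this overlap changes their counted levels was not tested. Levels per kb rest on 1 annotated transcript for each gene and are a description of the order, not of molecules per cell. Over the 10 libraries a member's range had a median of 0.52 log2 units, from 0.17 for Ndufa9 to 0.91 for Ndufa2.

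The 7 core subunits have counterparts in bacterial complex I and carry the cofactors and the ubiquinone site. They had a median difference of 0.011, with 4 higher and 3 lower in Uba3 cKO. Without Control replicate 3, 6 were higher and 1 lower, with a median of 0.016. In the N module, Ndufv1 holds the NADH site and the flavin cofactor. Ndufv1 measured 11.10, 11.03, 11.19, 11.02 and 10.99 in control replicates 1 to 5 and 11.07, 11.11, 11.21, 11.11 and 11.18 in Uba3 cKO replicates 1 to 5. All of these values lie within 0.23 log2 units, the groups overlap, and the difference was 0.074 ± 0.0566 (SE). Without Control replicate 3 it was 0.11 with an unadjusted p of 0.0481 (limma, adjusted p = 0.999). Its partner Ndufv2, which carries an iron-sulfur cluster, read 10.77, 10.81, 11.03, 11.00 and 10.89 in controls against 10.95, 10.82, 10.92, 10.66 and 10.98 in Uba3 cKO. Control replicate 3 was its highest library and Uba3 cKO replicate 4 its lowest, and the difference of -0.031 ± 0.0751 (SE) was smaller than either group's SD of 0.112 and 0.129. It was 0.00051 without Control replicate 3.

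Ndufs1 (ENSMUSG00000025968), the large iron-sulfur subunit of the N module, was the 1 member with its lowest value in Control replicate 3. Its levels were 10.76, 10.52, 10.22, 10.80 and 10.87 in controls and 10.67, 10.73, 10.77, 10.71 and 10.90 in Uba3 cKO. Uba3 cKO replicate 5 was its highest library, and without Control replicate 3 the groups cover much the same range. The difference of 0.12 ± 0.109 (SE) was the highest of the 46 members, and it was 0.016 without Control replicate 3. With 2590 bases, its transcript is the second longest among the members, after Ndufaf4.

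Of the N-module accessory subunits, Ndufv3, the subunit next to the flavin site that exists in tissue isoforms, gave 9.39, 9.40, 9.83, 9.29 and 9.30 in controls and 9.47, 9.28, 9.58, 9.23 and 9.42 in Uba3 cKO. Control replicate 3 lies above all others, and the difference was -0.045 ± 0.105 (SE) with it and 0.051 without it. Ndufs6, a zinc-binding subunit, gave 9.68, 9.70, 10.14, 9.50 and 9.31 against 9.84, 9.44, 9.80, 9.40 and 9.80. Ndufa2, a subunit with a thioredoxin-like fold, gave 10.33, 10.35, 10.90, 10.14 and 9.99 against 10.56, 10.14, 10.41, 10.06 and 10.43. Both had Control replicate 3 as the highest library and Control replicate 5 as the lowest, so a single group spans the whole range. Their differences were -0.010 ± 0.141 and -0.020 ± 0.15 (SE), and both turned positive without Control replicate 3 (0.11 and 0.12). Over all 10 N-module genes, 8 were lower and 2 higher in Uba3 cKO, with a median of -0.038. Without Control replicate 3, 3 were lower and 7 higher, and the median was 0.027.

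In the Q module, electrons reach ubiquinone. Ndufs7, which holds the last iron-sulfur cluster before ubiquinone, measured 10.44, 10.39, 10.84, 10.45 and 10.32 in controls against 10.51, 10.38, 10.52, 10.33 and 10.37 in Uba3 cKO. Control replicate 3 is 0.44 above the mean of the other controls, which overlap the Uba3 cKO libraries, and the difference was -0.064 ± 0.0904 (SE) with that library and 0.023 without it.

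Ndufs8, the other iron-sulfur subunit of the Q module, showed 10.43, 10.39, 10.69, 10.51 and 10.42 in controls and 10.49, 10.43, 10.43, 10.33 and 10.45 in Uba3 cKO. Apart from Control replicate 3 its libraries lie between 10.33 and 10.51, and the difference was -0.059 ± 0.0659 (SE), and -0.0091 without Control replicate 3. Ndufs3, a core subunit of this module without a cofactor, showed 10.75, 10.64, 10.95, 10.71 and 10.56 in controls and 10.86, 10.65, 10.84, 10.57 and 10.80 in Uba3 cKO. Its groups overlap over most of their range, with a difference of 0.022 ± 0.0826 (SE), and 0.079 without Control replicate 3. Ndufa5, an accessory subunit bound to the Q module, showed 10.01, 9.98, 10.36, 10.11 and 9.90 in controls and 10.16, 9.80, 10.14, 9.81 and 10.08 in Uba3 cKO. Control replicate 3 was highest and Uba3 cKO replicates 2 and 4 lowest, with a difference of -0.074 ± 0.1 (SE), and -0.0022 without Control replicate 3. In all, 4 of the 6 Q-module genes were lower and 2 higher in Uba3 cKO, with a median of -0.035, which was 0.0048 without Control replicate 3.

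**Figure D2:**
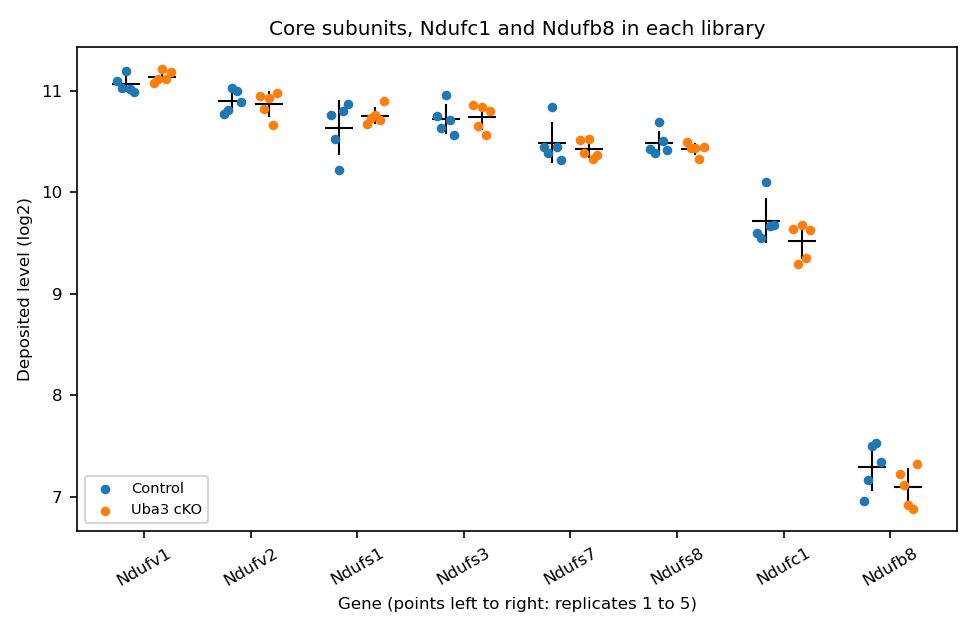
Deposited log2 level (vertical axis) of 6 of the 7 core subunits, Ndufc1 and Ndufb8 (horizontal axis) in 5 control (blue) and 5 Uba3 cKO libraries (orange), in replicate order from left to right; black marks are means and SD. The groups overlap for all 8 genes plotted, and Control replicate 3, the middle blue point, is the highest control for Ndufs7 and Ndufc1 and the lowest for Ndufs1.

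The proximal part of the membrane arm held the gene with the smallest p. Ndufc1 (ENSMUSG00000037152), a small subunit of the membrane arm, measured 9.60, 9.55, 10.10, 9.67 and 9.68 in controls and 9.64, 9.30, 9.68, 9.35 and 9.63 in Uba3 cKO. Control replicate 3 stood above all other libraries and Uba3 cKO replicates 2 and 4 below them, with the other 7 between 9.55 and 9.68. The difference was -0.20 ± 0.111 (SE), with a 95% interval from -0.44 to 0.041, and -0.11 without Control replicate 3. With each library's slope on transcript length as a covariate it was -0.15 with an unadjusted p of 0.047 (limma, adjusted p = 0.99996). Ndufa10, which has the fold of a nucleoside kinase, measured 11.03, 10.96, 11.29, 11.12 and 11.00 in controls and 11.04, 10.96, 11.14, 10.95 and 10.96 in Uba3 cKO. Its groups overlap, with a difference of -0.070 ± 0.0704 (SE), and -0.018 without Control replicate 3. Ndufa1, a small X-linked membrane subunit, measured 8.96, 8.87, 9.25, 8.63 and 8.65 against 8.94, 8.75, 9.04, 8.69 and 8.99. The control group spans the full range of the Uba3 cKO group, and the difference was 0.011 ± 0.119 (SE), and 0.11 without Control replicate 3. Of the 9 genes of this group, 8 were lower and 1 higher in Uba3 cKO, with a median of -0.063; without Control replicate 3, 3 were lower and 6 higher, with a median of 0.0073.

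The distal part of the membrane arm had the lowest median of the role groups, -0.072 over 11 genes, with 9 lower and 2 higher in Uba3 cKO. It was -0.022 without Control replicate 3, with 7 lower and 4 higher, and of the 5 role groups it was the 1 whose median kept its sign. Ndufb8 (ENSMUSG00000025204), an accessory subunit whose protein is a common marker of assembled complex I, measured 6.96, 7.16, 7.50, 7.53 and 7.34 in controls and 7.22, 7.12, 6.92, 6.89 and 7.33 in Uba3 cKO. Control replicates 3 and 4 were its highest libraries, while Control replicate 1 lay among the lowest. The difference was -0.20 ± 0.128 (SE), the lowest of the 46, and -0.15 without Control replicate 3. Leaving out Control replicate 1 made it -0.29 with an unadjusted p of 0.0321 (limma, adjusted p = 0.999).

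Ndufb9, which binds the mitochondrial acyl carrier protein, gave 9.32, 9.29, 9.71, 9.61 and 9.54 in controls and 9.52, 9.21, 9.40, 9.11 and 9.54 in Uba3 cKO. The groups overlap, the difference was -0.14 ± 0.106 (SE), or -0.083 without Control replicate 3, and 19.5% of its annotated exon bases are shared with another gene. Ndufb4 gave 9.05, 9.10, 9.59, 9.04 and 9.02 against 9.19, 8.94, 9.17, 8.82 and 9.14. Its value in Control replicate 3 was 0.53 above the mean of the other controls, and the difference of -0.11 ± 0.115 (SE) became -0.0039 without that library. Ndufb11, encoded on the X chromosome, gave 10.79, 10.66, 10.89, 10.54 and 10.54 against 10.90, 10.53, 10.80, 10.59 and 10.64. Its groups cover the same range, with a difference of 0.0075 ± 0.089 (SE), and 0.060 without Control replicate 3. Ndufb2, with 6.71, 6.89, 6.92, 7.24 and 7.23 against 6.97, 6.96, 6.85, 6.68 and 7.18, did not have its highest value in Control replicate 3 although its transcript is short, at 455 bases. Its highest libraries were Control replicates 4 and 5, and the difference was -0.072 ± 0.125 (SE), and -0.091 without Control replicate 3. Uba3 cKO replicate 4 was the lowest library for 10 of the 11 distal genes.

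The 8 assembly factors named Ndufaf build the enzyme and are not part of it when finished. Of these, 6 were lower and 2 higher in Uba3 cKO, with a median of -0.029; without Control replicate 3, 3 were lower and 5 higher, with a median of 0.022. Ndufaf5, which hydroxylates an arginine of Ndufs7 during assembly, measured 7.91, 8.17, 8.22, 8.13 and 8.10 in controls and 8.13, 8.02, 7.98, 7.99 and 7.93 in Uba3 cKO. Control replicate 1 was its lowest library and the other 4 controls lay at 8.10 or above, as did Uba3 cKO replicate 1, with a difference of -0.096 ± 0.0796 (SE), and -0.067 without Control replicate 3. Ndufaf6, needed early in assembly, was the highest difference in this group at 0.078 ± 0.0941 (SE), from 7.18, 7.33, 7.37, 7.53 and 7.13 in controls and 7.46, 7.43, 7.47, 7.25 and 7.30 in Uba3 cKO. The highest and the lowest value were both from controls, and without Control replicate 3 the difference was 0.093. Ndufaf4, which acts with Ndufaf3 on the Q module, measured 8.73, 8.95, 9.05, 8.95 and 8.87 in controls and 8.98, 9.01, 8.90, 8.94 and 8.83 in Uba3 cKO. All 5 Uba3 cKO values lie inside the control range, with a difference of 0.025 ± 0.0728 (SE), and 0.060 without Control replicate 3.

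Ndufa4 and Ndufa4l2 carry the family symbol but belong elsewhere: Ndufa4 is now placed in complex IV, and Ndufa4l2 is its homolog, known as a gene induced by low oxygen. Ndufa4 measured 10.82, 10.85, 11.10, 11.04 and 10.89 in controls and 11.05, 10.72, 10.96, 10.65 and 10.87 in Uba3 cKO. Uba3 cKO replicates 2 and 4 were lowest, the groups overlap, and the difference was -0.090 ± 0.0849 (SE), and -0.050 without Control replicate 3. Per kb, Ndufa4 was the highest member at 12.04 log2 units and Ndufa4l2 the lowest at 4.76. Ndufa4l2 read 4.66, 4.62, 4.71, 4.69 and 4.58 in controls and 4.63, 4.87, 4.52, 4.90 and 4.44 in Uba3 cKO. Its Uba3 cKO values spread more (SD 0.206 against 0.0504) around means of 4.67 and 4.65, a difference of 0.018 with Control replicate 3 and 0.032 without it. The symbol Ndufb1-ps, left out by its ending, is listed in RefSeq as the protein-coding Ndufb1; its row gave 8.66 ± 0.35 in controls and 8.67 ± 0.263 in Uba3 cKO (SD, n = 5).

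**Figure D3:**
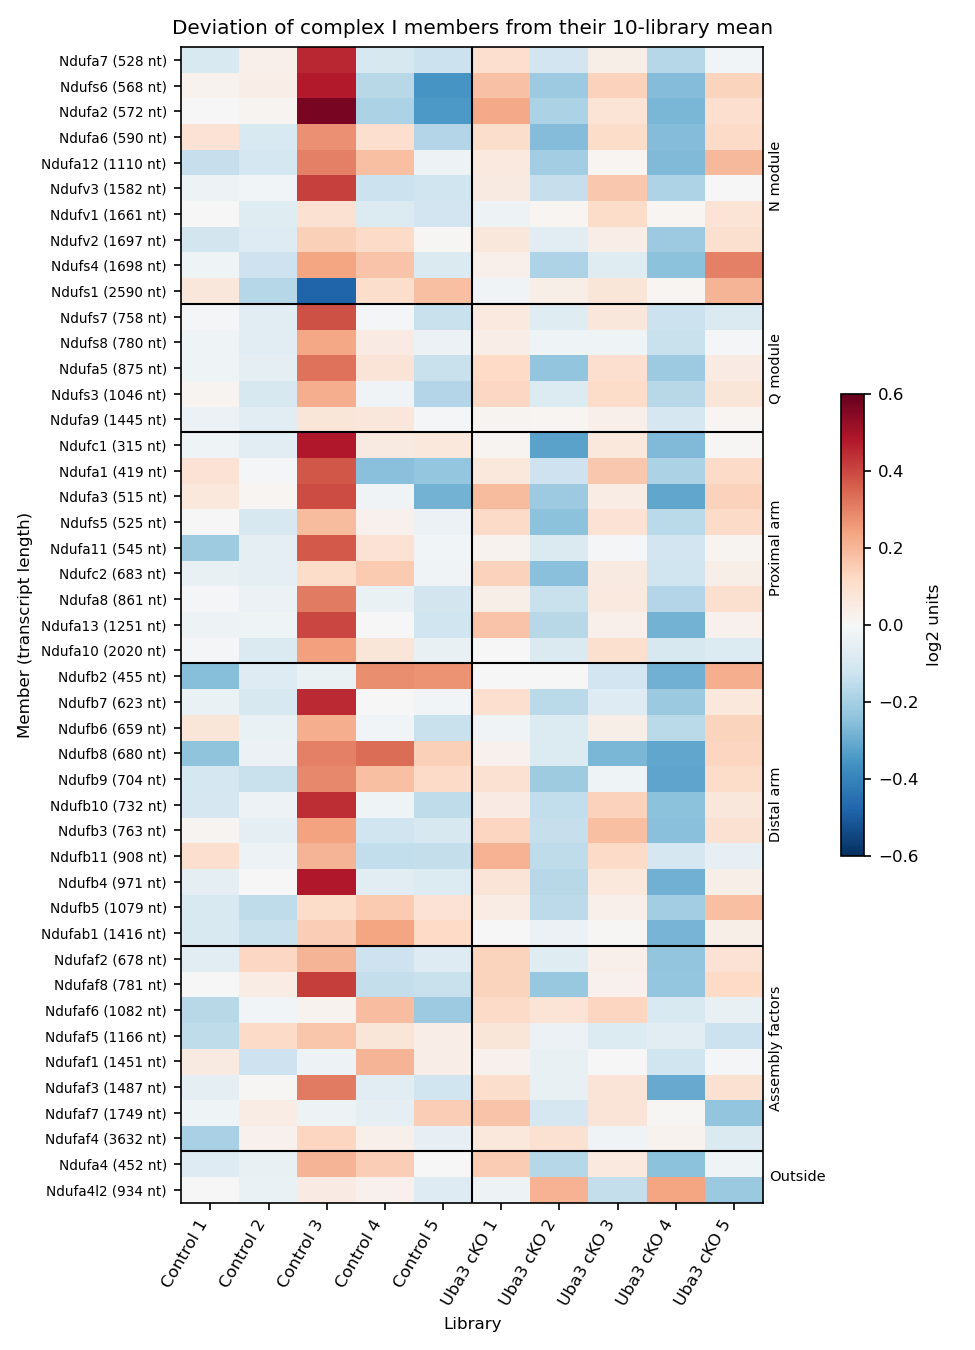
Deviation of 45 of the 46 members (rows, with transcript length in nucleotides, grouped by role) from its mean over the 10 libraries (columns) in log2 units, shown as colour. The column of Control replicate 3 is red in most rows, except Ndufs1 and a few others, and the column of Uba3 cKO replicate 4 is mostly blue.

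The members' levels varied more among libraries of a group than between the groups, and they varied together. Control replicate 3 was the highest of the 10 libraries for 32 of 46 members, against 23.6% of all genes tested, and Uba3 cKO replicate 4 was the lowest for 26 of 46, against 12.1%. The mean level over the members was 9.56, 9.56, 9.84, 9.63 and 9.54 in control replicates 1 to 5 and 9.68, 9.49, 9.64, 9.43 and 9.65 in Uba3 cKO replicates 1 to 5. The group means were 9.62 ± 0.123 and 9.58 ± 0.113 (SD, n = 5). The highest library is thus a control and the lowest a Uba3 cKO library, with the others mixed between 9.49 and 9.68.

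Genes of similar length also had their highest value in Control replicate 3 more often when short. Members with transcripts under 1 kb and a level of at least 8 had their highest value in Control replicate 3 in 21 of 23 cases, against 76.5% of all 630 such genes. From 1 to 2 kb it was 8 of 15 members against 48.9% of 1923 genes, and from 2 kb on it was 2 of 3 members against 14.5% of 6629 genes. The excess of Control replicate 3 over the mean of the other controls had a median of 0.36 log2 units in these 23 short members and 0.36 in the 630 short genes. From 2 kb on the median was 0.17 in the 3 members and -0.13 in the 6629 genes, with Ndufs1 below 0 and Ndufa10 and Ndufaf4 above it. The difference between the groups had a median of -0.059 in the 23 short members and -0.064 in the 630 short genes, of which 81.3% were lower in Uba3 cKO. These medians were 0.015 and 0.0053 without Control replicate 3. Members are short as a family, with a median transcript of 868 bases. With each library's slope on transcript length as a covariate in limma, 30 members were lower and 16 higher, and the median was -0.016. Over all 15629 genes tested, 8073 were lower and 7556 higher in that fit, with a median of -0.0027. In the 630 short genes, 416 were lower and 214 higher, with a median of -0.024.

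**Figure D4:**
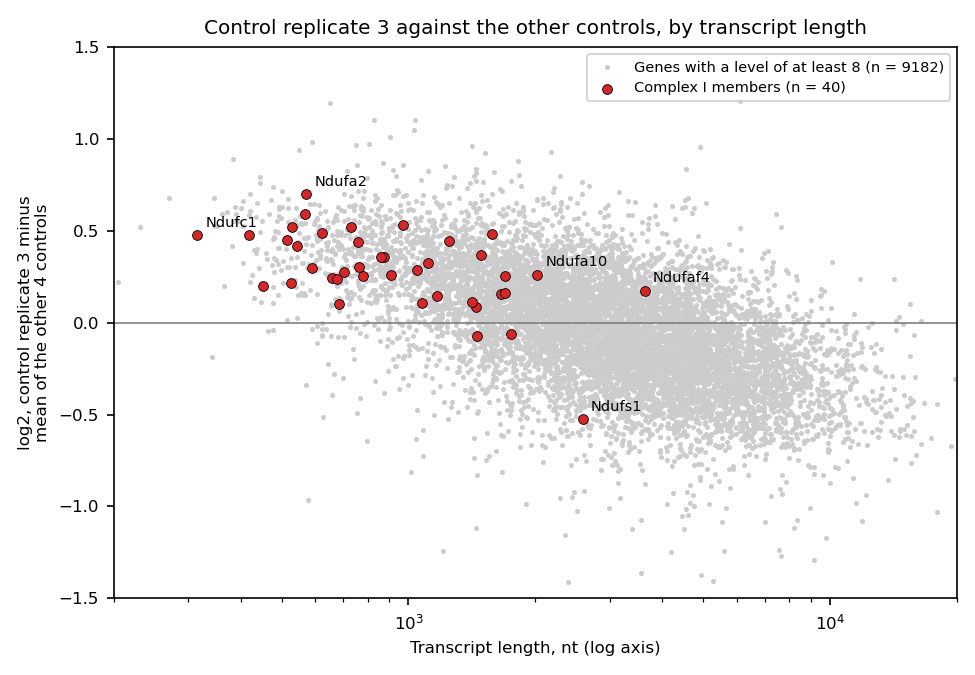
Control replicate 3 minus the mean of the other 4 controls in log2 units (vertical axis) against transcript length in nucleotides (horizontal axis, log scale), for 9182 genes with a level of at least 8 (grey, of which 15 lie outside the axes) and 40 members among them (red, Ndufa4 included). The median of genes under 1 kb lies at 0.36 and that of genes of 2 kb or more at -0.13, with single genes of both kinds on either side of 0. Ndufs1 lies at -0.52 and Ndufaf4, the longest member, at 0.17.

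**Figure D5:**
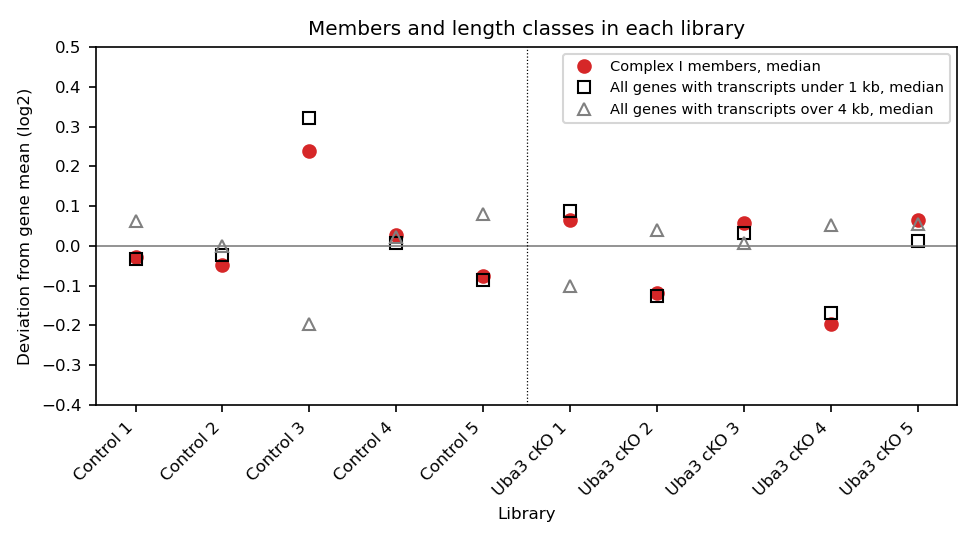
Median deviation from the gene's 10-library mean in log2 units (vertical axis) in each library (horizontal axis), for the 46 members (red circles), all genes with transcripts under 1 kb (black squares) and over 4 kb (grey triangles), the last 2 among genes with a level of at least 8. In Control replicate 3 short genes lie at 0.32 and genes over 4 kb at -0.20, and the members lie near the short genes in all libraries.

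The promoters of the members were searched for letters of 3 factors known for genes of respiration. Whether such letters go with the levels of the members was not tested. The searched letters were GCGCATGCG for NRF1, CCGGAAG for the ETS family (which includes the GABP factor) and AAGATGGCG for YY1, on both strands of windows of 300 bases, 250 before and 50 after the start, from RefSeq on GRCm38.p6. Windows of 40 of the 46 members were in the table. Of the 42 windows of these 40 members, 15 (35.7%) held at least 1 match, against 11.4% of all 32851 windows and 24.7% of the 9410 windows of genes with a level of at least 8. NRF1 letters were in 9.52% of the members' windows, against 1.75% of all windows and 4.08% of those of genes with a level of at least 8. ETS letters were in 14.3%, against 8.86% and 19.0%. YY1 letters were in 14.3%, against 1.40% and 3.48%. The NRF1 letters nearly equal their own reverse complement, so that 1 stretch can match on both strands. A match is a description of these letters and not a binding site.

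Windows of 3 members with matches are shown, from 120 bases before the start to 30 bases from it on, with matches in capitals. Ndufa8, a membrane arm subunit, has the NRF1 letters on the opposite strand just before the start, at chr2:36049309-36049458 on the minus strand. Ndufs3 has the ETS letters on both strands, at chr2:90904692-90904841 on the minus strand. Ndufaf8, an assembly factor that stabilises Ndufaf5, has the ETS letters before the start and the YY1 letters after it, at chr11:120098814-120098963 on the plus strand.
Ndufa8: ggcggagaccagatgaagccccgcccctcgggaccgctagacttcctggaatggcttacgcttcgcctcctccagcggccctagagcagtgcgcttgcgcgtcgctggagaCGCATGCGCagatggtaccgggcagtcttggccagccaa
Ndufs3: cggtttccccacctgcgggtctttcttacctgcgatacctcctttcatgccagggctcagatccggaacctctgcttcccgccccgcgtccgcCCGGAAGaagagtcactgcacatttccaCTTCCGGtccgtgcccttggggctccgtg
Ndufaf8: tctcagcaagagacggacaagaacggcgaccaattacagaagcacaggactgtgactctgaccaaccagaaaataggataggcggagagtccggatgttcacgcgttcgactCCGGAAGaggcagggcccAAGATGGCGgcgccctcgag
The 3 genes had differences of -0.049, 0.022 and -0.075 between the groups, none past the test, and of 0.023, 0.079 and 0.020 without Control replicate 3. In Control replicate 3 they lay 0.36, 0.29 and 0.47 above the mean of the other controls. The median of this excess was 0.26 over the 46 members and 0.36 over the 630 genes under 1 kb with a level of at least 8.

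Other genes of the pathway gave no call either. Of 13 further complex I assembly factors, 7 were lower and 6 higher in Uba3 cKO, with a median of -0.0090 (0.0026 without Control replicate 3), and 0 passed the test. The smallest p were for Timmdc1, which helps build the membrane arm (-0.15 ± 0.0798, SE, unadjusted p = 0.0899 by limma), and Ecsit, another of these assembly factors (-0.11 ± 0.0954, SE). Nuclear genes of the other complexes had medians of -0.025 for complex II (8 genes, 5 lower), -0.041 for III (9 genes, 6 lower), -0.078 for IV (10 genes, 9 lower) and -0.052 for V (14 genes, 9 lower), with 0 passing the test in each. Without Control replicate 3 these medians were 0.018, 0.014, -0.0090 and 0.021. The genes with the smallest p in these lists were Sdha (0.16) and Sdhc (-0.085), Uqcrh (-0.15) and Uqcrb (-0.086), Cox6c (-0.17) and Cox6b1 (-0.12), and Atp5j2 (-0.18) and Atp5g2 (-0.098), the smallest p being 0.101. Without Control replicate 3 the differences of these 8 genes, in the same order, were 0.052, -0.057, -0.065, -0.046, -0.12, -0.023, -0.11 and -0.038, and those of Timmdc1 and Ecsit were -0.10 and -0.045. Sdha, the catalytic subunit of complex II with a transcript of 2900 bases, was lowest in Control replicate 3 like Ndufs1, at 11.58 against 12.05 to 12.33 in the other controls.

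The mitochondrially encoded partners were lower in Uba3 cKO for 7 of 7 mt-Nd genes, against 49.8% of all genes, with a median of -0.23. Without Control replicate 3 it was 7 of 7 against 52.7%, with a median of -0.15. The mean levels of mt-Nd4l and mt-Nd3 were only 4.63 and 7.19, and those of the other mt-Nd genes lay between 13.49 and 15.30. All 7 count equally in these values and in the mean over the mt-Nd genes. They are encoded together in mitochondrial DNA and were measured in the same libraries, so they are not 7 independent observations. Their transcripts run from 297 to 1824 bases. Among the 630 genes under 1 kb with a level of at least 8, 81.3% were lower in Uba3 cKO. Without Control replicate 3, 302 of the 630 were lower. In the limma fit over all genes, mt-Nd2 differed by -0.25 ± 0.109 (SE, unadjusted p = 0.0413, limma adjusted p = 0.9999). In the same fit mt-Nd4 differed by -0.26 ± 0.115 (SE, unadjusted p = 0.0431, limma adjusted p = 0.9999). The differences without Control replicate 3 were -0.15 and -0.15, with unadjusted limma p of 0.0682 and 0.0705 (limma adjusted p = 0.999 for both). The mean of the mt-Nd genes minus that of the 36 nuclear subunits was 1.995, 1.989, 2.234, 2.288 and 2.297 in control replicates 1 to 5 and 1.993, 1.984, 1.967, 2.140 and 1.920 in Uba3 cKO replicates 1 to 5. Control replicates 3, 4 and 5 are the highest and the other controls overlap the Uba3 cKO libraries. The means were 2.161 ± 0.156 and 2.001 ± 0.083 (SD, n = 5), a difference of -0.16, and -0.14 without Control replicate 3. No test was made of this difference, since its members were chosen with results known.

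Some members share sequence with other genes, and the strand setting of the counting is not given in the sources used here. Near copies (a match of 95% identity or more that covers 50% or more of the transcript) were found for 4 of the 46: Ndufb11, Ndufs3, Ndufs5 and Ndufs6. The copies with a row in the table were at 2.60 or lower. Other genes overlap at least 10% of the annotated exon bases in 7 members, most in Ndufaf2 (65.6%) and Ndufb6 (39.0%). Reads of pairs on opposite strands cannot be told apart where counting ignored strand. The overlap of Ndufb9 (19.5%) is with a gene on the same strand, so strand does not separate its reads under either setting. Ndufb8 (4.26%) and Ndufb2 (2.58%) have smaller overlaps on the same strand.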

How the data were processed

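Total RNA of whole ovaries was extracted with a PicoPure kit, per the labels' protocols, and TruSeq libraries of it were run on a NovaSeq. The submitters' processing notes name fastp, STAR, featureCounts, DESeq2 and the build GRCm39, without versions or roles. The authors' deposited table holds log2 normalized values with an unnamed transform, from -0.21 to 20.19. No counts were recovered, so depth is unknown, no count test applied, and low genes may be drawn toward their mean. Each column was matched to its sample by name, and groups come from the genotype label.

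Symbols were found for 22188 of 22891 identifiers. The filter kept 15629 genes whose mean reached 3.32 log2 units, which is 10 in linear units. The comparison used limma 3.58.1 (R 4.3.3) with a mean-variance trend, no covariate and Benjamini-Hochberg adjustment over all genes tested (threshold 0.05). Standard errors, 95% intervals and p-values come from this fit, and the script was tested on simulated data. Transcript length was that of the shortest transcript of the best APPRIS rank in GENCODE M21 (GRCm38, not the authors' build), used for names, length, overlaps and copies (blastn 2.17.0) only. The length slope used 9182 genes with a level of at least 8.

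Values in every library are given for 6 of the 7 core subunits; 1 member that the rule takes is not reported by name here. They are also given for the 2 smallest p and the highest and lowest mean level in each role group, the 4 widest ranges, Ndufa4 and Ndufa4l2. The 2 smallest p of each other list are given by their difference. The members and lists were chosen with earlier results of these data known. Replicate numbers are shared by the groups, but the correlations of same-numbered libraries, from -0.34 to 0.32, did not pair them. The alternatives were other filters, no trend, library weights, median centring, the length slope, a replicate block and leaving out each library. Listed genes without a match were not used here.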

Additional observations from a re-analysis of the deposited data

Results flagged for a closer look

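In 9 of 86 groups of 5 libraries tested, 1 library lay far from the other 4 (gap over range above 0.71). The rule flags about 1 in 20 by chance in independent groups. The 86 groups share the same libraries, and many of the genes were picked by their p or range in them. The 9 of 86 can therefore not be set against that rate. Control replicate 3 was the distant library in all 9, as the highest control. Among the members these were Ndufs7 at 10.84, Ndufv3 at 9.83, Ndufc1 at 10.10 and Ndufb4 at 9.59. The mean level of the proximal membrane arm genes was likewise far off at 10.20. Among other genes of the pathway these were Timmdc1 at 9.52, Ecsit at 8.76, Atp5g2 at 11.98 and Cox6b1 at 11.17. All are log2 levels in that library.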

How the results depend on the processing

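The number of members called by limma was 0 in all 17 alternatives, and the smallest adjusted p of a named gene in any of them was 0.999. The number at an unadjusted p under 0.05 was 1 with the length slope as covariate and 1 with the replicate block (Ndufc1 in both, -0.15 and -0.20). Leaving out each library gave 0 to 1 (Ndufb8 without Control replicate 1, Ndufv1 without Control replicate 3). With the block the other calls stayed at 0, and the labels do not say that a number pairs libraries. The median difference lay between -0.080 (without Control replicate 5) and 0.0066 (without Control replicate 3), and between -0.061 and -0.016 in the alternatives of other kinds.

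Of 36 named genes, 25 kept their sign in every alternative, and 11 turned in at least 1. Library weights gave 0.020 for Ndufv3, 0.051 for Ndufa2, 0.044 for Ndufs6 and -0.048 for Uba3. The length slope gave 0.0058, 0.060, 0.061 and -0.016 for the same genes, and median centring gave -0.0020 for Uba3. Leaving out each library turned Ndufs3 (-0.019 to 0.079), Ndufs7 (-0.11 to 0.023), Ndufv2 (-0.063 to 0.019), Ndufv3 (-0.091 to 0.051), Ndufa1 (-0.050 to 0.11), Ndufb11 (-0.044 to 0.060), Ndufaf4 (-0.021 to 0.060), Ndufa4l2 (-0.039 to 0.076), Ndufa2 (-0.11 to 0.12), Ndufs6 (-0.10 to 0.11) and Uba3 (-0.056 to 0.066). Beyond what each setting leaves out or adds, the cause was not tested. Depth is unknown, so counting error cannot be given, and differences below about the interval widths were not detectable with 5 libraries a group.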
